A study of Homo sapiens with 6 samples.

Results

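The genes described here are the core machinery of the microRNA pathway in MDA-MB-231 cells, an established human triple-negative breast cancer line. They are the 4 Argonaute genes *AGO1* to *AGO4*, the processing genes *DROSHA*, *DGCR8*, *XPO5* and *DICER1*, and the GW182 genes *TNRC6A* and *TNRC6B*. The members were chosen by name from knowledge of the pathway, with earlier results of these data known. All 10 of 10 were found, under these symbols, among the 15917 genes of the deposited table. The series holds total RNA-seq of 6 libraries, 2 of them from cells with the control hairpin (shCTRL) and 2 from cells with each of the hairpins shRBMS3-B3 and shRBMS3-C3 against *RBMS3*, an RNA binding protein gene. The time between transduction and harvest was not given in the sources used here. Per the study's methods, the knockdown cells were luciferase-labeled, received the hairpins by lentivirus and were selected with puromycin, so that each culture is a selected population and the controls carry the vector, the label and the selection too. Knockdown cells were compared with control cells to find transcripts that depend on *RBMS3*.

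For each gene the level analysed is the authors' mean normalized count over libraries, in which control and knockdown libraries are averaged together. Whether all 6 libraries or only 4 of them entered this mean is not settled, since the study's account of the comparison gives 2 replicates of knockdown and 2 of control cells. It is one value per gene. The table gives no value of a single library, so no level has an error or an n, the depth of the libraries is unknown, and no difference between knockdown and control cells was tested here. Where the levels of 2 genes are close, it cannot be said whether they differ beyond the spread between libraries. The levels of the listed genes run from 26.7 to 859682 with a median of 364. *RBMS3* itself had a mean level of 271.5, at percentile 43.3 of the listed genes, and this mean over both conditions does not check the knockdown.

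The line was checked against markers. All 5 genes taken as high in this line lay at or above percentile 98.5. They are *VIM*, *CD44*, *AXL* and *MSN*, which go with its mesenchymal-like state, and *KRT18*, an epithelial keratin gene. Of 4 genes that should be low or absent, *ESR1* and *PGR*, the hormone receptor genes, were not listed, and the epithelial genes *CDH1* and *EPCAM* had levels of 31.6 and 107.2. Of 4 defining genes of other cell types, *PTPRC*, *ALB* and *MYH6* were not listed, and the endothelial gene *PECAM1* had a level of 69.0. A gene that is not listed may have been removed as too low, and its level is not known.

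MicroRNAs are cut from long primary transcripts in steps. In the nucleus the Microprocessor, made of the ribonuclease Drosha and its RNA-binding partner DGCR8, releases a hairpin. Exportin-5, encoded by *XPO5*, carries the hairpin to the cytoplasm, where Dicer trims it to a short duplex. One strand is loaded into an Argonaute protein and guides it to messenger RNAs by pairing through the seed, bases 2 to 8 of the microRNA. GW182 proteins, encoded by the TNRC6 genes, bind Argonaute and bring in the enzymes that shorten the poly(A) tail and remove the cap, and among human Argonautes AGO2 is best known for cutting its target directly.

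The substrates of this machinery are shown first, through the mean levels of host transcripts that are named for microRNAs. Hosts with other symbols were not gathered, apart from *DGCR8* below. MIR...HG symbols, which name long noncoding hosts of microRNA hairpins, occur 11 times in the table. The highest mean level among them was that of *MIR100HG* (chr11:122028325-122556721, minus strand, GRCh38), at 1555, or 867 per kilobase of its representative transcript. The next were *MIR22HG* at 384.5, *MIRLET7BHG* at 313.8, *MIR17HG* at 177.4 and *MIR193BHG* at 115.2. Counted per kilobase, *MIRLET7BHG* reached 359, *MIR17HG* 237, *MIR22HG* 134 and *MIR193BHG* 21.5. Only *MIR100HG*, *MIRLET7BHG* and *MIR17HG* of the 11 exceeded the median of all listed genes per kilobase, which was 137. By undivided level, 9 of the 11, *MIRLET7BHG* and *MIR17HG* among them, lay below the median of 364. The RefSeq microRNA table on GRCh38.p14 held no hairpin entry within *MIR22HG*. That table lacks some hairpin entries, such as that of miR-1306 described below. It therefore cannot show whether *MIR22HG* carries a hairpin. The same table places 4 hairpins within *MIR100HG*, among them those of let-7a-2, miR-100 and miR-125b-1. Within *MIRLET7BHG* it places 4, among them let-7a-3 and let-7b, and within *MIR17HG* 6, among them miR-17 and miR-20a. The 5′ products of the hairpins named are printed 5′ to 3′ with the seed in capitals. They are part of what these hosts carry, and are sequences by which the Argonautes described next would find targets. The mature microRNAs themselves were not measured.

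let-7a-5p: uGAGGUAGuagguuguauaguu
let-7b-5p: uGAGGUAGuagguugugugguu
miR-17-5p: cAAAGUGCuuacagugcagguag
miR-20a-5p: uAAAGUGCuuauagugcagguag
miR-100-5p: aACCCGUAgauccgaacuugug
miR-125b-5p: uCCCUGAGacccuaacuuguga

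The let-7 products of *MIR100HG* and *MIRLET7BHG* share the seed GAGGUAG, and miR-17-5p and miR-20a-5p share AAAGUGC. The seeds of miR-100-5p and miR-125b-5p differ from these and from each other.

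The Argonaute genes, whose proteins hold the guide strand, were led by *AGO2*. Its mean level was 4134, at percentile 95.0 of the listed genes. *AGO1* followed with 1303, *AGO3* with 828 and *AGO4*, the only member below the median of all listed genes, with 295. Longer transcripts collect more reads, so levels of different genes are compared per kilobase of the representative GENCODE transcript. On that scale *AGO2* had 283 and *AGO1* 95.0, while *AGO3* with 42.1 and *AGO4* with 40.6 were almost level. *AGO2* thus made up 61.4% of the summed Argonaute level per kilobase and *AGO1* 20.6%. The share of *AGO2* was 63.0% of the undivided mean levels.

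*AGO3* was above *AGO4* on each scale, and the size of the gap moved with how length is counted. The undivided level of *AGO3* was 2.80 times that of *AGO4*, the level per kilobase of transcript 1.04 times and that per kilobase of coding sequence 2.81 times. The last scale divides the level of the whole gene, reads from the untranslated parts included, by coding length. It is therefore no density of reads over the coding part, and it runs high where the untranslated parts are long. The representative *AGO3* transcript has 19660 bases and that of *AGO4* 7272, although their coding parts measure 2583 and 2586 bases. The length of the transcripts that these cells make was not measured, and the authors' annotation is not named.

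**Figure D1:**
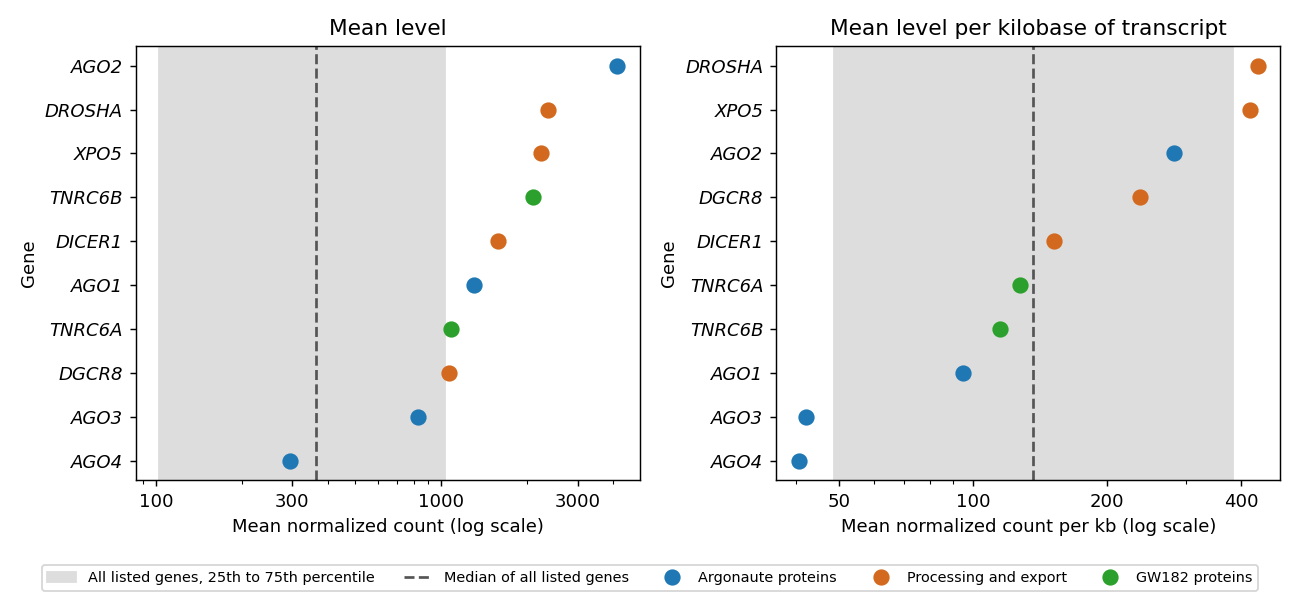
Mean level of the 10 members as deposited (left) and per kilobase of the representative transcript (right), both in normalized counts on a log axis, one point per gene; the points are means over libraries and carry no error. On the left 9 members lie to the right of the median of all listed genes (dashed line), and on the right 5 do.

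*AGO4*, *AGO1* and *AGO3* lie side by side on the plus strand of chromosome 1. GENCODE release 44 on GRCh38 places *AGO4* (ENSG00000134698) at chr1:35808016-35857890, *AGO1* (ENSG00000092847) at chr1:35869808-35930532 and *AGO3* (ENSG00000126070) at chr1:35930718-36072500. Between *AGO1* and *AGO3* there are only 185 bases, against 11917 between *AGO4* and *AGO1*. *AGO2* (ENSG00000123908) lies apart from them on the minus strand of chr8:140520156-140635633. The adjacent genes *AGO1* and *AGO3* differed 2.26-fold in level per kilobase of transcript, and the level of the unlinked *AGO2* was above that of each. The gap between *AGO1* and *AGO3* was smaller per kilobase of coding sequence, with 506 against 321. It was also smaller in the undivided levels of 1303 and 828.

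Among the members *DROSHA* and *XPO5* had the highest levels per kilobase of transcript, and *AGO2* the highest per kilobase of coding sequence, at 1602. That value of *AGO2* includes reads from its 3′UTR, which has 11888 bases against 2580 in the coding part. *DROSHA* (ENSG00000113360, chr5:31400494-31532196, minus strand), which encodes the nuclear ribonuclease, reached 435 per kilobase from a mean level of 2358. *XPO5* (ENSG00000124571, chr6:43522334-43576038, minus strand) followed with 419.5 per kilobase from 2233. These are the 2 members above the 75th percentile of all listed genes per kilobase, which was 383. *DGCR8* (ENSG00000128191, chr22:20080221-20111877, plus strand) had 237 per kilobase from a mean level of 1068. *DROSHA* was therefore 1.84 times as high as its partner per kilobase of transcript, and 1.24 times as high per kilobase of coding sequence. *DICER1* (ENSG00000100697, chr14:95086228-95158010, minus strand), the cytoplasmic ribonuclease, had 152 per kilobase from 1579 and lay near the middle of all listed genes, at percentile 52.7.

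The *DGCR8* transcript is itself a carrier of microRNA hairpins. In the RefSeq table the miR-3618 hairpin lies at chr22:20085746-20085833, in exon 2 and wholly in the 5′UTR of the representative transcript, ending 130 bases before the coding part. The 2 products of miR-1306 lie in the same exon, within the coding part. These sequences are printed because reads from the hairpins and from *DGCR8* share the same bases, so that a *DGCR8* level could include them.

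miR-3618: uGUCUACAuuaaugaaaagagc
miR-1306-5p: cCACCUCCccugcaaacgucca
miR-1306-3p: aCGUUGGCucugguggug

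No seed among the 3 is shared with another. Of the 4432 windows of 75 bases in the *DGCR8* transcript, 25 also occur in another annotated gene, and the gene with most of them is *MIR3618*.

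The GW182 genes encode the scaffold between Argonaute and the decay enzymes. *TNRC6B* (ENSG00000100354, chr22:40044817-40335808, plus strand) had a mean level of 2102 and *TNRC6A* (ENSG00000090905, chr16:24610209-24827632, plus strand) 1084. Per kilobase of transcript their order was the opposite, with 128 for *TNRC6A* and 115 for *TNRC6B*. The 3′UTR of *TNRC6B* has 12567 bases and that of *TNRC6A* 2411, while the coding parts have 5502 and 5889. With the level divided by coding length alone, *TNRC6B* was again higher, with 382 against 184. The third gene of the family, *TNRC6C*, which is no member, had 63.0 per kilobase of transcript. The shares of the 3 were 41.8%, 37.6% and 20.6% for *TNRC6A*, *TNRC6B* and *TNRC6C* per kilobase of transcript.

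**Figure D2:**
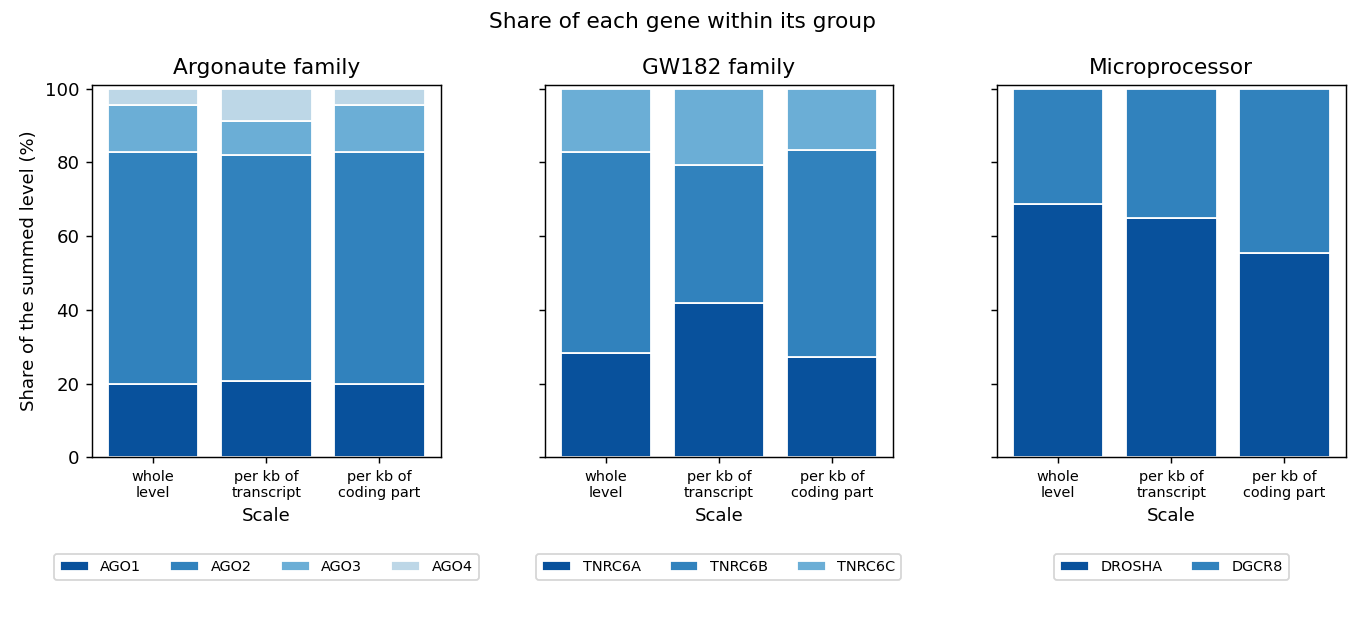
Share of each gene in the summed level of its group (y axis, percent) for the Argonaute genes, the GW182 genes with *TNRC6C*, and the Microprocessor genes, each on 3 scales (x axis). The share of *AGO2* is 61.4% per kilobase of transcript and 63.0% both undivided and per kilobase of coding part. The Argonaute coding parts are almost equally long, so their shares on those last scales are the same by arithmetic. The share of *TNRC6B* moves from 37.6% to 56.3%.

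Over all 10 members the mean levels spanned 14.0-fold, from *AGO2* to *AGO4*, and the levels per kilobase 10.7-fold, from *DROSHA* to *AGO4*. In the order per kilobase, *DROSHA* and *XPO5* were 1.04-fold apart, *XPO5* and *AGO2* 1.48-fold, *AGO2* and *DGCR8* 1.20-fold and *DGCR8* and *DICER1* 1.56-fold. Below them came *TNRC6A*, *TNRC6B* and *AGO1*, in steps of 1.19-fold, 1.11-fold and 1.21-fold, and then *AGO3*, 2.26-fold under *AGO1*. None of these steps can be set against a spread. The step from *AGO1* to *AGO3* was smaller by undivided level and per kilobase of coding sequence. The order also depended on the scale. Per kilobase of coding sequence *AGO1* stood above *DGCR8*, *TNRC6B*, *DICER1* and *TNRC6A*, and *DICER1* stood below *AGO3*. The median of the members was 1441, against 364 for all listed genes and 526 for the 12408 listed genes that GENCODE holds as protein-coding. Per kilobase it was 140, close to the 137 of all listed genes and below the 152 of the protein-coding ones.

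The members have long transcripts. All 10 representative transcripts were longer than the median of 3458 bases over 12349 listed protein-coding genes with a 3′UTR, and the median of the members was 9438. All 10 also had longer coding parts and more exons than the median gene, with 14 exons in *DGCR8* as the fewest and 36 in *DROSHA* as the most. The 3′UTR was longer than the median of 1378 bases in 9 of the 10, the exception being *DROSHA* with 938. It made up 85.2% of the *AGO3* transcript and 81.5% of that of *AGO2*. The 3′UTRs of *AGO1*, *AGO2*, *AGO3* and *TNRC6B* were each longer than those of over 99% of these genes, from percentile 99.1 for *AGO1* to 99.9 for *AGO3*. These are properties of the annotation, given as descriptions.

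The study seeks an AUA element in 3′UTRs as the sequence through which RBMS3 acts. Here it was read as 7 bases, a first base other than C, then A or T, then ATA, then A or T, then A, on the sense strand and with overlaps counted. Matches were found in the 3′UTRs of 8 members, and 84.8% of the 12349 genes had at least 1. *AGO3* had 64 matches, *TNRC6B* 28, *AGO2* 23 and *AGO1* 16. There were 8 in *AGO4*, 7 in *DICER1*, 4 in *TNRC6A* and 3 in *DROSHA*. The longest annotated 3′UTR of *TNRC6A*, with 7834 bases, has 8. *DGCR8* and *XPO5* had none in these windows. The 153 matches over 67337 bases of 3′UTR came to 2.27 per kilobase, against 2.79 per kilobase over all 12349 genes. The high counts of *AGO1*, *AGO2* and *TNRC6B* went with long 3′UTRs, at rates of 1.46, 1.93 and 2.23 per kilobase. *AGO3* and *DROSHA* were above the rate of all genes, with 3.82 and 3.20 per kilobase. The count of *AGO3* thus went with both a long 3′UTR and a high rate. Of the 153 matches, 52 (34.0%) contain AATAAA, the polyadenylation signal, which occurs in 36.0% of the matches in all listed protein-coding genes.

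The first match after the stop codon is printed for 5 members, with 10 bases on either side and the match in capitals, to show how the element looks in a short and in a long 3′UTR. Sequences are from GENCODE release 44 on GRCh38, read along the transcript.

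AGO3, 468 bases after the stop codon, chr1:36056203-36056229: tgtatttttaAAATATAtacatccata
TNRC6B, 380 bases after the stop codon, chr22:40323611-40323637: gctaagaaacATATATActgaaaaaaa
TNRC6A, 1323 bases after the stop codon, chr16:24825120-24825146: gttgtttgttGTATAAAgaaaatttta
DICER1, 150 bases after the stop codon, chr14:95090332-95090358: atagataacaGAATAAAacatttaaca
DROSHA, 108 bases after the stop codon, chr5:31401308-31401334: gtgctcattgAAATAAAatacagagtc

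The *DICER1* and *DROSHA* windows, on the minus strand, are among those in which the match contains AATAAA. The first match of *AGO1*, a gene on the plus strand, contains it too. In *AGO3*, *TNRC6A* and *TNRC6B*, also on the plus strand, the first match does not. A match is a string of letters and says nothing on binding.

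**Figure D3:**
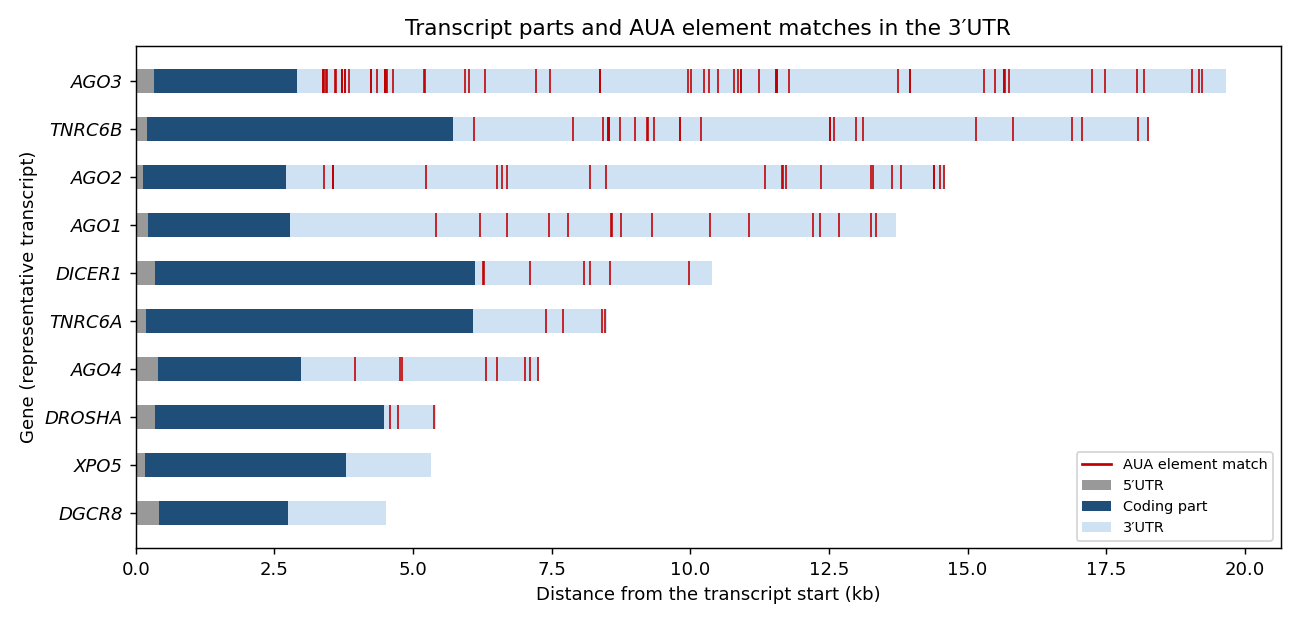
Representative transcript of each member drawn to scale from its start (x axis, kilobases), with 5′UTR, coding part and 3′UTR as coloured segments and each AUA element match in the 3′UTR as a red line. Matches are spread along the long 3′UTRs of *AGO3*, *TNRC6B*, *AGO2* and *AGO1*, and *XPO5* and *DGCR8* have none.

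The Argonaute genes are paralogs, so shared sequence could mix their levels. Between their coding sequences 71.2% to 75.9% of aligned bases were identical, and between those of *TNRC6A*, *TNRC6B* and *TNRC6C* 64.9% to 66.8%. No window of 75 bases, the read length of the study, in a member's representative transcript occurred in a transcript of another gene of its family. Such windows occurred in any other gene for *AGO3*, with 10 of 19586, and *DGCR8* alone. Windows of 31 bases were shared more often. Another Argonaute gene held 20 of those of *AGO3*, 13 of those of *AGO4*, 2 of those of *AGO1* and none of those of *AGO2*. Of the 19630 such windows in *AGO3*, 7.56% occurred in some other gene, and 1483 of these 1485 began in its 3′UTR. In *DICER1* 53 windows of 31 bases, all in the coding part, matched 1 processed pseudogene (ENSG00000273860), and *DROSHA* and *XPO5* had none. The search covered the sense strand. An exon of *XPO5* overlaps *POLR1C* on the opposite strand, and *AGO1*, *AGO3* and *DGCR8* each overlap 1 gene there that the table does not list. *AGO2* overlaps 1 other annotated gene (ENSG00000279766) on its own strand. Whether the authors' counting used strand is not given in the sources used here.

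The members stand among other genes of the pathway, grouped by role. Of 29 such genes, 26 were listed, and all 26 had a mean level at or above the median of all listed genes. Against the higher median of the listed protein-coding genes, 526, *PAN2*, *PRKRA* and *EIF4ENIF1* lay below. *LIN28A* and *LIN28B*, which block let-7 processing, and *TRIM71*, a let-7 target, were not listed. Per kilobase the 26 had a median of 314, and 21 lay above the 137 of all listed genes, against 5 of the 10 members. Among partners and regulators of processing the median per kilobase was 373, with the Dicer partners *TARBP2* at 373 and *PRKRA* at 229, both above *DICER1* at 152. The undivided levels had the opposite order, with 563.5 for *TARBP2* and 405 for *PRKRA*, one of the 3 lowest of the list, against 1579 for *DICER1*. The median of the 26 undivided levels was 1403, next to the 1441 of the members.

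Genes for Argonaute loading and cofactors included the highest levels. The chaperone genes *HSP90AB1* and *HSP90AA1*, which help to load the guide duplex and serve many other proteins, had mean levels of 42226 and 26913. Among effectors, *PABPC1*, which binds poly(A) tails, had 17834. *PAN2*, a deadenylase gene, and *EIF4ENIF1*, whose product links eIF4E to decay, were among the 3 lowest with 380 and 446. The 8 effectors include *TNRC6C*, itself a GW182 gene and not a recruited enzyme. With it, the median of effectors per kilobase was 204, above 128 for *TNRC6A* and 115 for *TNRC6B*. The median of the undivided levels of the effectors, 898, was below the 1084 of *TNRC6A* and the 2102 of *TNRC6B*. These lists serve as a setting and were not tested.

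**Figure D4:**
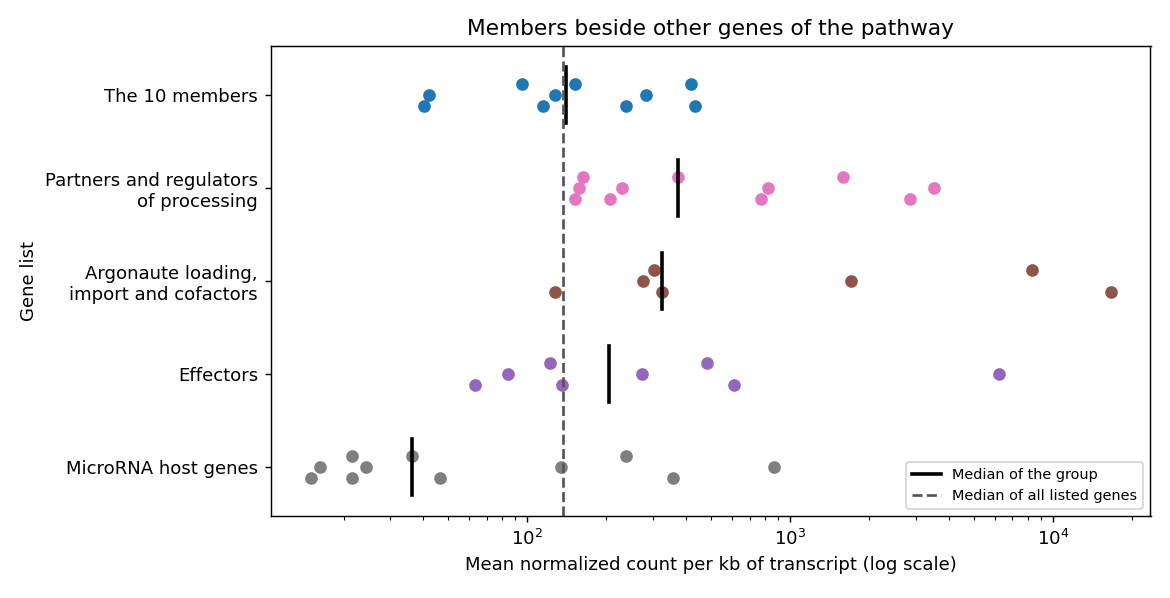
Mean level per kilobase of transcript (x axis, normalized counts, log scale) of the members and of 4 other gene lists, one point per gene, with the median of each list as a black bar and that of all listed genes as a dashed line. The bar of the members (140) lies next to the dashed line (137), that of processing partners at 373 and that of the 11 microRNA host genes at 36.6.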

How the data were processed

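Total RNA of MDA-MB-231 cells was sequenced in 6 libraries from a stranded kit for small inputs, and per the labels Salmon and DESeq2 were used on hg38, with no version stated. The authors deposited one table with a row per gene. The deposited signal that was used is a mean over libraries of counts that the authors divided by size factors, as the column has the name that DESeq2 gives it. The libraries that entered this mean are not named. The other deposited columns (log2 fold change, its standard error, test statistic, p-value and adjusted p-value) are the authors' own comparison and were not used. Depth is unknown and no precision can be given. A count test was planned in case counts per library were in the table, and none was run.

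The 10 members and all lists were chosen with earlier results of these data known. Genes are named as follows: all members, *RBMS3*, the 3 highest, the 3 lowest and the unlisted genes of the pathway list, and the 5 highest microRNA hosts. *TARBP2*, *TNRC6C* and *POLR1C* were named after their values were seen. No gene is named for a similar pattern, since one mean holds none. Ensembl identifiers of the table were looked up in GENCODE release 44 (GRCh38), where 15829 of 15917 were found. In 3 genes of the list the table uses older symbols, *ZCCHC11* for *TUT4*, *ZCCHC6* for *TUT7* and *RQCD1* for *CNOT9*. The representative transcript was MANE Select, otherwise the Ensembl canonical one. The coding part includes the stop codon. Percentiles are shares of listed genes below a value. Coding sequences were aligned globally with Biopython 1.88 (match 2, mismatch -1, gap opening -5, extension -0.5). Shared windows are exact matches to any GENCODE transcript of another gene. The functions were tested on simulated sequences. Python 3.11.15, pandas 2.3.3 and matplotlib 3.10.9 were used. One marker gene of the planned list is not reported here, for a reason unrelated to its value.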

Additional observations from a re-analysis of the deposited data

How the results depend on the processing

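Across 23 values and 36 alternatives, 26 alternatives left a value within 1.5 times of that reported and 10 moved it further, a limit used because no spread between libraries is known. The limit is coarse, so the tally is no measure of robustness. *AGO2* going from percentile 95.0 to 68.4 per kilobase counted as within it. So did the share of *TNRC6B* going from 37.6% to 56.3% by coding length, although the order of *TNRC6A* and *TNRC6B* reversed. The median percentile of the 10 members was 81.8 by mean level, 78.0 among protein-coding genes alone and 50.4 per kilobase of transcript. Per kilobase, *AGO1*, *AGO3*, *AGO4*, *DICER1*, *TNRC6A* and *TNRC6B* moved by over 1.5 times, to percentiles from 21.5 for *AGO4* to 52.7 for *DICER1*. The share of *AGO2* was 61.4% per kilobase and 63.0% by coding length. The latter equals its undivided share by arithmetic, since the Argonaute coding parts have 2574 to 2586 bases. The longest transcript could not serve as an alternative for the Argonaute and GW182 genes, where it is the representative one. By coding length the share of *AGO4* was 4.5% in place of 8.8% and that of *TNRC6A* 27.1% in place of 41.8%. Windows shared with other genes made up 0.0327% at 75 bases and 1.84% at 31 bases, where a shorter window matches more often by construction. The AUA element had 153 matches, and 158 with the longest 3′UTR, where *TNRC6A* went from 4 to 8. Restricting the pathway list to genes at or above the median of all listed genes removed none. No paired analysis was possible because the table holds one mean per gene and no value per replicate. For the same reason another normalization, a filter on low counts, another test and leaving out each replicate were not run.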
